A study of Mus musculus with 2 samples.

Results

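The Ms4a genes encode a family of small membrane proteins, and 8 of them were followed here among the 32285 genes counted in mouse spleen cells: Ms4a1, Ms4a3, Ms4a4b, Ms4a4c, Ms4a6b, Ms4a6c, Ms4a6d and Ms4a7. They were chosen by symbol from 19 Ms4a-named genes, with earlier results of these data known, so their levels are given as a description with no test. Spleen cells that had been frozen alive were sorted with CD45.2, CD11b and the viability dye DAPI and made into 3′ single-cell RNA libraries, 1 labelled high B12 and 1 labelled low B12. The series title names blood formation without Tet2, and no genotype, strain, age, dose or number of mice is labelled for either group. With 1 library per group no test between the groups was possible. The 95% intervals below describe counting error alone, and any difference between the groups cannot be told apart from a difference between the libraries.

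MS4A proteins cross the membrane several times with both ends in the cytoplasm, and several of them sit next to immune receptors and tune their signalling. Their genes lie side by side in a cluster that has expanded by duplication, and single members mark single blood lineages: Ms4a1 encodes CD20, the B cell surface protein, and Ms4a3 marks the shared precursors of granulocytes and monocytes. In mice Ms4a4b is known from T cells, Ms4a7 from tissue macrophages and microglia, and the Ms4a6 genes from monocytes and macrophages.

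In GRCm38 (GENCODE M21) all 19 Ms4a genes lay on chromosome 19 between 10962293 and 11640851, a span of 679 kb, and the 8 members between 11249675 and 11640851, 4 on each strand. Ms4a4c (11404770 to 11427246), Ms4a4b (11443553 to 11467055), Ms4a6c (11469366 to 11482192) and Ms4a6b (11516512 to 11531256) were consecutive genes on the plus strand. The coding sequences of Ms4a4b and Ms4a4c were 91.7% identical (622 of 678 aligned positions). Ms4a6b was 79.8% identical to Ms4a6d and 74% identical to Ms4a6c, and Ms4a6c to Ms4a6d 66.8%. All other pairs of members were 42.1 to 51.5% identical.

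Promoters of these neighbouring pairs are shown because the values below part Ms4a4b from Ms4a4c, while Ms4a6b and Ms4a6c were both high in classical monocytes. The second trait is shared with Ms4a4c and Ms4a6d. RefSeq's table (GRCm38.p6, 250 bases before to 50 after a start site) held 6 of the 8 members. Capitals mark bases inside a stretch of at least 12 bases that the other gene of the pair also has.
Ms4a4b, chr19:11443308-11443607, plus strand: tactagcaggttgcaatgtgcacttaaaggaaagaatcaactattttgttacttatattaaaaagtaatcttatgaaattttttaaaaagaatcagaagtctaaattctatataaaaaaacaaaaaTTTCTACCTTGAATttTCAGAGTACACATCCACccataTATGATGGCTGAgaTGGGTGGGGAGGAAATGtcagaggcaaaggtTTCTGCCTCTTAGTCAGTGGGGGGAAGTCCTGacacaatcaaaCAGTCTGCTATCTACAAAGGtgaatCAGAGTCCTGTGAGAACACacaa
Ms4a4c, chr19:11407411-11407710, plus strand: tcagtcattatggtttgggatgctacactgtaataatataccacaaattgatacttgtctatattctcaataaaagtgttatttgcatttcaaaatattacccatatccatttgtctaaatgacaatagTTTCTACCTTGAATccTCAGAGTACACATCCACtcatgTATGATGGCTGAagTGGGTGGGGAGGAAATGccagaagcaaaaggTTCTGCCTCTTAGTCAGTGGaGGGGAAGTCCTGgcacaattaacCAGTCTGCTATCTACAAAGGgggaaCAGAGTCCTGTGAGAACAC
Ms4a6b, chr19:11518309-11518608, plus strand: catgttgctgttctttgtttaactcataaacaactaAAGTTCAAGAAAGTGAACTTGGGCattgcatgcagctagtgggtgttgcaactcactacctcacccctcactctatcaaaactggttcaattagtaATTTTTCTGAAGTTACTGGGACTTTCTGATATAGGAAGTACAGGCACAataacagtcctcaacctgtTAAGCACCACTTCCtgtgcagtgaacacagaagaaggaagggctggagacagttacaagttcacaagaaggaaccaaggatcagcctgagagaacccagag
Ms4a6c, chr19:11469118-11469417, plus strand: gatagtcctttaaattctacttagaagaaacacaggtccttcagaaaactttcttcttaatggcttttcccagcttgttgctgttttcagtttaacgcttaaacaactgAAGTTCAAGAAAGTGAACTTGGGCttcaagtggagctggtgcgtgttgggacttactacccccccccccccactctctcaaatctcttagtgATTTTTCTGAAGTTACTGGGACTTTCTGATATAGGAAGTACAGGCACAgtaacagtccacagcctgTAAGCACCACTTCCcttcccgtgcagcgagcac

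The Ms4a4b and Ms4a4c promoters shared 131 of 300 bases in such stretches, the longest of 20 bases, and were 72.1% identical when aligned. Those of Ms4a6b and Ms4a6c shared 86 of 300 bases, with 1 stretch of 48 bases, and were 51.2% identical. The other pairs had no shared stretch beyond 12 bases and were 40.4 to 49.1% identical. A PU.1 core (GAGGAA, either strand) occurred once each in the Ms4a3, Ms4a4b and Ms4a4c windows and in 1 of 2 Ms4a7 windows, and not in those of Ms4a6b and Ms4a6c. It occurred in 28.3% of all 32851 promoters of that length. An octamer core (ATGCAAA, either strand) occurred in the Ms4a4c window and in the second Ms4a7 window, against 4.63% of all promoters. The core of the interferon-stimulated response element (GAAANNGAAA, either strand) was found in no window of the 6 members and in 3.44% of all promoters, and the interferon gamma activated site (TTCNNNGAA, the same on both strands) in none of these windows and in 8.3% of all. A match is a string of letters and no site of binding.

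Unique molecular identifiers (UMIs, 1 per captured RNA molecule) numbered 46994991 in the high B12 library and 48884220 in the low B12 library. There were 6748 high B12 cells, their median depth 4327 UMIs, and 6510 low B12 cells, their median depth 5695 UMIs. Cells were put into gates by marker UMIs in a fixed order, and no gate uses an Ms4a gene. The high B12 and low B12 libraries had 2651 and 930 neutrophils, 673 and 1852 B cells, 844 and 946 NK cells, 402 and 478 conventional dendritic cells (cDC), 648 and 812 classical monocytes, 188 and 450 other monocytes, 43 and 68 T cells and 35 and 19 progenitors rich in granule enzyme RNA (Elane, Mpo and Prtn3). Each gate had UMIs of every gene of its own marker list in both libraries. Some of these genes define the gates, and every neutrophil marker had UMIs in all gates, so this is no check of cell identity. The libraries shared 4 cell barcodes. A cell could meet the limits of more than 1 gate, as 6.05% of high B12 and 8.05% of low B12 cells did, and these stayed in the first gate they met. Levels are in CPM, a gene's UMIs per 1000000 UMIs of the gate.

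Each of the 8 genes had its own order of gates, and 7 of them had the same leading gate in both libraries. Ms4a1 led in B cells, Ms4a3 in progenitors, Ms4a4b in NK cells, Ms4a4c, Ms4a6b, Ms4a6c and Ms4a6d in classical monocytes and Ms4a7 in other monocytes. Ms4a6b was the exception, since in the low B12 library it was at 331 CPM in T cells and at 316 CPM in classical monocytes.

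**Figure D1:**
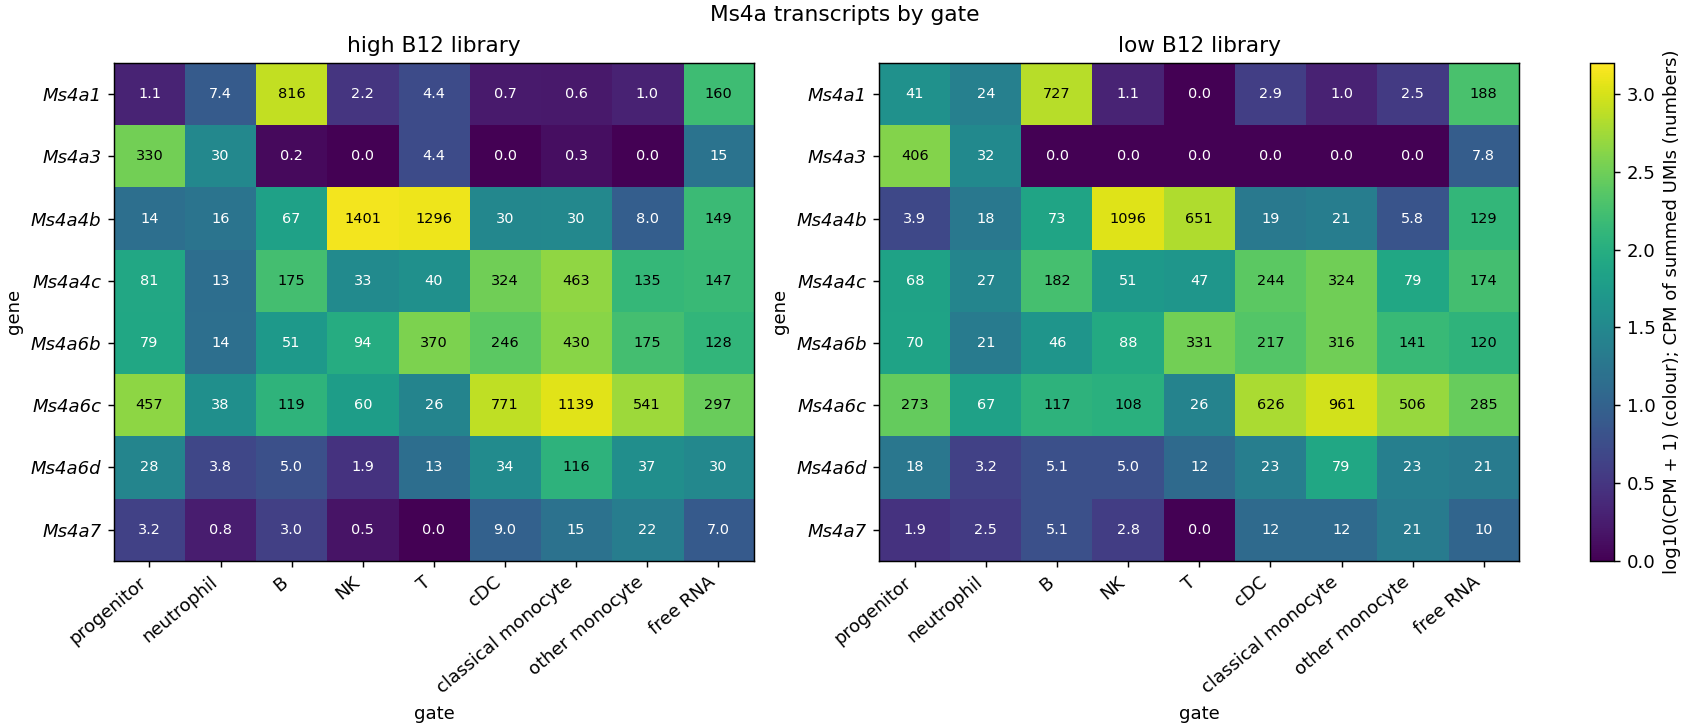
Level of each of the 8 Ms4a genes (down) in each of 8 gates and in RNA outside cells (across), in the high B12 library (left) and the low B12 library (right). Numbers are CPM of summed UMIs and colour is log10(CPM + 1). Ms4a1, Ms4a3 and Ms4a4b are each high in 1 or 2 gates, and Ms4a4c, Ms4a6b and Ms4a6c in monocytes and cDC.

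Ms4a1, the gene for CD20, was at 816 CPM in high B12 B cells (interval 791 to 841) and at 727 CPM in low B12 B cells (713 to 742). It was at 2.16 and 1.08 CPM in NK cells and at 0.641 and 1.04 CPM in classical monocytes, high B12 library first. In B cells 91.2% of high B12 and 94.4% of low B12 cells had an Ms4a1 UMI, against 0.948% and 0.529% of NK cells, which should lack it. Median UMIs were 6443 and 6048 in B cells and 4478 and 4216.5 in NK cells. With every cell thinned to 1000 UMIs these shares were 54.8% and 51.3% of B cells. B cells thus stood far above every other gate in both libraries, and the next gates by mean, progenitors (1.07 and 41.0 CPM) and neutrophils (7.39 and 23.6 CPM), overlapped each other. RNA outside cells, taken from barcodes of at most 100 UMIs, held Ms4a1 at 160 CPM in the high B12 and 188 CPM in the low B12 library.

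Ms4a3 was at 330 CPM in high B12 progenitors (294 to 369, 35 cells) and at 406 CPM in low B12 progenitors (353 to 465, 19 cells). In neutrophils it was at 30.0 and 32.0 CPM. The progenitors also held much neutrophil marker RNA, which summed to 174983 CPM in the high B12 and 160416 CPM in the low B12 library. In neutrophils these markers summed to 281563 and 235094 CPM. Their part in the progenitor level of Ms4a3 was not tested. In NK cells, cDC and other monocytes Ms4a3 had no UMI in either library, and in B cells, T cells and classical monocytes it had at most 2 UMIs per library. For NK cells a floor of 3 UMIs equals 0.721 CPM in the high B12 and 0.648 CPM in the low B12 library. The upper end of the exact Poisson interval for 0 UMIs lies somewhat above this floor.

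Within neutrophils Ms4a3 went with the RNA of the granule proteins Camp, Ngp and Ltf, which neutrophils make while they mature. In neutrophils with at least 5 UMIs of these genes it was at 49.0 CPM in the high B12 library (796 cells) and at 49.9 CPM in the low B12 library (264 cells). In the other neutrophils it was at 0.316 CPM (1855 cells, 2 UMIs) in the high B12 library, and the low B12 library had no UMI in 666 cells. The cells with granule RNA were also deeper, at medians of 11236.5 and 11631.5 UMIs against 3060 and 2688.5 UMIs. The limit of 5 UMIs was not scaled by depth, and the part of depth in this difference was not tested. In the high B12 library the ratio of cells with over cells without granule RNA was 124 (42.7 to 1285) for Ms4a3, and the other 7 members were at 0.302 to 1.39. In the low B12 library these 7 were at 0.558 to 2.65, and the intervals of Ms4a6b (2.65, 1.66 to 4.62), Ms4a6c (2.44, 1.89 to 3.22), Ms4a4c (2.31, 1.56 to 3.61) and Ms4a4b (1.63, 1.05 to 2.68) lay above 1.

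Ms4a4b, a T cell gene that is also known from NK cells, was at 1401 CPM in high B12 NK cells (1365 to 1437) and at 1096 CPM in low B12 NK cells (1066 to 1127). In T cells it was at 1296 CPM in the high B12 library (43 cells) and at 651 CPM in the low B12 library (68 cells). The 5 NK markers, with UMIs of all 5 in both T gates, summed to 3377 CPM in high B12 and 729 CPM in low B12 T cells, against 10957 and 9388 CPM in NK cells, and their part in the T cell level was not tested. The NK and T cell ranges over the libraries overlapped, and B cells, the next gate, were at 66.7 and 72.6 CPM. An Ms4a4b UMI was seen in 71% of high B12 and 66.2% of low B12 NK cells thinned to 1000 UMIs, against 2.93% and 1.48% of classical monocytes. NK cells with at least 10 UMIs of the killing proteins Gzma, Gzmb and Prf1 had it at 1411 CPM in the high B12 and 1084 CPM in the low B12 library, and the other NK cells at 1335 and 1173 CPM, so the direction differed between the libraries.

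Its neighbour Ms4a4c had another distribution. It was at 463 CPM in high B12 classical monocytes (446 to 480) and at 324 CPM in low B12 classical monocytes (312 to 337). In cDC it was at 324 and 244 CPM, in B cells at 175 and 182 CPM, in NK cells at 32.7 and 50.9 CPM and in T cells at 39.7 and 47.3 CPM. Over the 16 gate and library values the Pearson correlation of log2(CPM + 10) between Ms4a4b and Ms4a4c was -0.36. These libraries read the 3′ end of a transcript. Of the 50-base words in the last 500 bases of Ms4a4c 11.8% also occur in Ms4a4b, and none of those of Ms4a4b occur in another gene. For Ms4a6c 13.7% of these words occur in other genes, Ms4a6b among them, and for the other 6 members none. How the authors counted reads that fit both genes is not given in the sources used here.

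The level of Ms4a4c in B cells did not follow those of the other monocyte members. There were 1.48 UMIs of Ms4a4c per UMI of Ms4a6c in high B12 B cells and 1.56 in low B12 B cells, against 0.497 and 0.609 in RNA outside cells and 0.406 and 0.337 in classical monocytes. In B cells that met the limits of no other gate Ms4a4c was at 170 and 183 CPM and Ms4a6c at 68.7 and 58.5 CPM. Ms4a4c was higher in the B cells without Sox5 and Cacna1e RNA (269 and 252 CPM) than in those with a UMI of either (142 and 158 CPM). Ms4a4b (110 and 93.1 CPM without, 51.6 and 65.7 CPM with) and Ms4a6b (67.1 and 56.6 CPM without, 44.8 and 42.7 CPM with) did likewise. The part of depth in this division was not tested. Ms4a1 ran the other way in the high B12 library, at 873 CPM in cells with and 653 CPM in cells without Sox5 or Cacna1e, and in low B12 cells it was at 734 CPM with and 709 CPM without them.

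Ms4a6c was at 1139 CPM in high B12 classical monocytes (1113 to 1166) and at 961 CPM in low B12 classical monocytes (940 to 984). It was at 771 and 626 CPM in cDC, at 541 and 506 CPM in other monocytes and at 457 and 273 CPM in progenitors, and these 4 gates did not overlap in that order. Its share of cells with a UMI after thinning was 62.7% and 58.0% in classical monocytes, against 0% of 43 and 1.52% of 66 T cells. In cDC it was higher in cells with Cd209a RNA, a gene of the type 2 cDC and monocyte-derived lines, at 852 and 735 CPM, than in those without, at 525 and 458 CPM. Of high B12 cDC 28.9% and of low B12 cDC 34.9% also met the limits of another gate, and in the rest Ms4a6c was at 678 and 520 CPM.

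Ms4a6b was at 430 and 316 CPM in classical monocytes, at 370 and 331 CPM in T cells and at 246 and 217 CPM in cDC. Its T cell level set it apart from Ms4a6c, which was at 26.5 and 26.0 CPM there. The third Ms4a6 gene, Ms4a6d, was at 116 and 79.1 CPM in classical monocytes and at 36.9 and 23.1 CPM in other monocytes, and cDC (33.8 and 22.6 CPM) overlapped with the second of these. After thinning, at least 1 of Ms4a4c, Ms4a6b, Ms4a6c and Ms4a6d was missed in nearly all classical monocytes, since 1.39% of high B12 and 0.493% of low B12 cells had a UMI of all 4. None of the 4 was seen in 16.4% of high B12 and 25.6% of low B12 classical monocytes, against 60.0% and 60.8% of other monocytes.

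Ms4a7 was at 21.9 CPM in high B12 other monocytes (22 UMIs) and 20.6 CPM in low B12 other monocytes (50 UMIs). Few cells carried it: 5.32% and 3.11% of other monocytes had an Ms4a7 UMI, and the 10 cells with most held 100% and 92% of the UMIs. It was higher in monocytes with RNA of complement C1q, a product of macrophages. In monocytes with at least 3 UMIs of C1qa, C1qb and C1qc Ms4a7 was at 71.5 CPM (42.4 to 113, 25 cells) in the high B12 and at 105 CPM (77.8 to 139, 46 cells) in the low B12 library. In the other monocytes it was at 13.9 and 9.60 CPM, so the ratio was 5.27 (2.93 to 8.58) in the high B12 and 11 (7.59 to 15.6) in the low B12 library. The other 5 measured members were at ratios of 0.359 to 1.48 in the same comparison.

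Classical monocytes carry Ly6c2 and Ccr2 and arrive from bone marrow, and the other monocytes here had at most 2 UMIs per cell of Ly6c2, Ccr2, F13a1 and Fn1 together. Called higher, meaning at least 2-fold in both libraries on genes with at least 50 UMIs, were 4 of the 6 measured members, where 2.47% of 10152 genes were called higher and 5.29% lower. The ratio of classical over other monocytes was 3.40 for Ms4a4c in the high B12 library (2.87 to 4.09) and 4.09 in the low B12 library (3.54 to 4.78). It was 3.55 (1.87 to 8.84) and 3.59 (2.15 to 6.93) for Ms4a4b, which had only 8 and 14 UMIs in other monocytes. It was 3.10 and 3.40 for Ms4a6d and 2.45 and 2.24 for Ms4a6b. Ms4a6c stood at the limit, with 2.1 and 1.9. Ms4a7 lay on the other side of 1, at 0.669 (0.424 to 1.14) and 0.576 (0.406 to 0.833), and was not called. Median UMIs per cell were 9629 and 9063 in classical and 4337.5 and 4992 in other monocytes. With cells thinned to 1000 UMIs after gating, 7 of these ratios left their counting interval and 5 did not. With gate limits set per 5000 UMIs of the cell 4 left it and 8 did not. The part of depth in these ratios was not tested further.

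The levels of Ms4a4b, Ms4a4c and Ms4a6b rose with the number of classical marker UMIs at every step in both libraries. Those of Ms4a6c and Ms4a6d did so only in the low B12 library, and that of Ms4a7 in neither. Ms4a4c was at 113, 168, 324 and 486 CPM in high B12 monocytes with 0, 1 to 2, 3 to 9 and 10 or more UMIs of Ly6c2, Ccr2, F13a1 and Fn1, and at 66.6, 106, 198 and 349 CPM in low B12 monocytes. Ms4a6d ran at 40.9, 31.1, 118 and 115 CPM in high B12 and at 22.4, 24.4, 68.2 and 81.2 CPM in low B12 monocytes, with its step between 2 and 3 UMIs. Ms4a6c moved less, at 566, 505, 858 and 1187 CPM in high B12 and 497, 526, 706 and 1011 CPM in low B12 monocytes. In Ms4a4c the high B12 value stood above the low B12 value in all 4 steps. The same held for Ms4a6b, Ms4a6d and Ms4a4b, the last with only 4 and 7 UMIs in the first step. Cells with more marker UMIs were also deeper, from medians of 3952 and 4692 UMIs in the first step to 9949 and 9471.5 in the last.

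**Figure D2:**
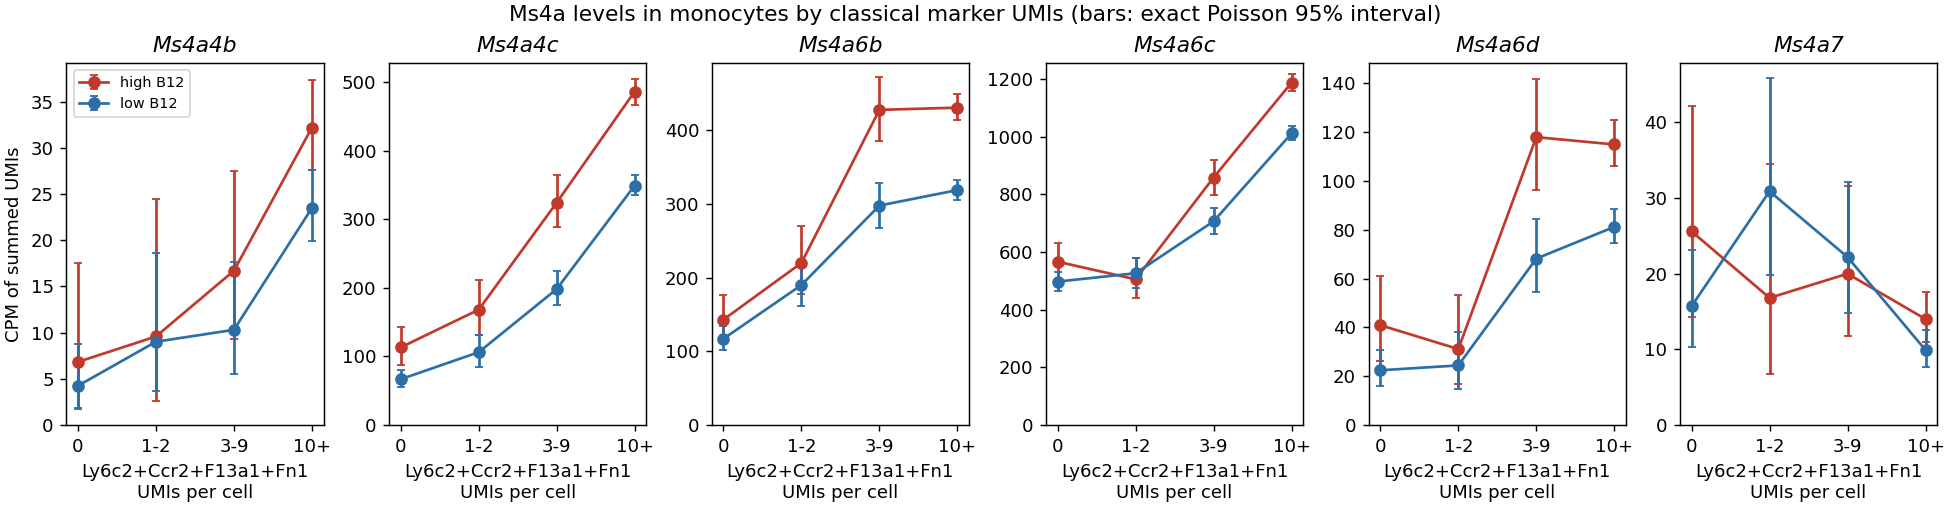
Level of 6 Ms4a genes (CPM, each panel with its own axis from 0) in monocytes by the number of Ly6c2, Ccr2, F13a1 and Fn1 UMIs in the cell, in the high B12 (red) and low B12 (blue) libraries, with exact Poisson intervals. Ms4a4c climbs over the 4 steps in both libraries, to 486 and 349 CPM in the last, and Ms4a7 does not.

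Interferon RNA marked a further layer in classical monocytes, seen in a division of the cells that was added after the data were examined. In cells with at least 3 UMIs of Ifit1, Ifit2, Ifit3, Rsad2 and Oasl1, Ms4a4c was at 867 CPM in the high B12 (57 cells) and 610 CPM in the low B12 library (64 cells), against 418 and 300 CPM in the other classical monocytes. The ratio of interferon-high over interferon-low cells was 2.07 (1.88 to 2.28) and 2.04 (1.82 to 2.27). It was 1.88 and 1.82 for Ms4a6b, 2.04 in both libraries for Ms4a6d and 1.39 and 1.24 for Ms4a6c. Ms4a4b, with 1.31 and 1.11, and Ms4a7, with 0.909 and 1.48, had intervals that held 1. The same division was planned for neutrophils. There the ratio was 4.75 and 7.03 for Ms4a4c, 4.98 and 8.82 for Ms4a6b and 3.91 and 3.54 for Ms4a6c. Ms4a4b was at 3.95 and 5.23 in neutrophils. Ms4a1 was at 1.36 (0.634 to 2.43) and 0.357 (0.0344 to 1.06), and these intervals held 1. Its low B12 ratio rests on 2 UMIs in interferon-high neutrophils. Ms4a3 was at 0.892 (0.59 to 1.26) in the high B12 library. In low B12 interferon-high neutrophils Ms4a3 had 0 UMIs. Its ratio there, 0.0519 (0 to 0.388), therefore depends on the constant added to each sum, and only the upper end of the interval is informative. The part of neutrophils that met more than 1 gate in these ratios was not tested. In classical monocytes the high B12 over low B12 ratio of Ms4a4c was 1.42 within interferon-high and 1.40 within interferon-low cells. Interferon-high cells were 57 of 648 high B12 and 64 of 812 low B12 classical monocytes. The ratio within interferon-low cells is therefore bound to lie near the 1.43 of all classical monocytes. The part of interferon RNA in that ratio was not tested.

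In classical monocytes all 6 measured members were higher in the high B12 than in the low B12 library, and none reached 1.5-fold. Of 9632 genes 6.06% were called, meaning at least 1.5-fold, 2.23% as higher and 3.83% as lower. The ratios of high B12 over low B12 were 1.46 for Ms4a6d (1.31 to 1.63), 1.43 for Ms4a4c (1.35 to 1.51), 1.40 for Ms4a4b (1.13 to 1.74), 1.36 for Ms4a6b (1.29 to 1.44), 1.25 for Ms4a7 (0.928 to 1.69) and 1.19 for Ms4a6c (1.15 to 1.22). Their median log2 ratio was 0.47, against -0.07 over all genes tested. The 5 neutrophil markers summed to 2416 CPM in high B12 and 1624 CPM in low B12 classical monocytes, the 6 macrophage markers to 141 and 238 CPM and the 9 monocyte markers to 4087 and 4128 CPM, with UMIs of every marker in both. Of the 12 type I interferon genes listed, 11 were also above 1, with a median log2 ratio of 0.50, and 3 were called higher. Bst2, the tethering factor for budding viruses, was at 229 and 149 CPM, and Irf7, the interferon transcription factor, at 131 and 93.6 CPM.

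In other monocytes 2 of 5 measured members were called higher, where 5.98% of 6861 genes were called higher and 8.66% lower. Ms4a4c was at 135 CPM (114 to 160) in the high B12 and 79.1 CPM in the low B12 library, a ratio of 1.72 (1.37 to 2.15). Ms4a6d was at 36.9 and 23.1 CPM, a ratio of 1.61 (1.03 to 2.46) from 37 and 56 UMIs. Ms4a6b (1.25), Ms4a7 (1.08) and Ms4a6c (1.07) were not called. Some markers of other cells were also higher in the high B12 gate. The 6 macrophage markers summed to 577 CPM in high B12 and 348 CPM in low B12 other monocytes. The 5 cDC markers summed to 33.9 and 18.9 CPM (UMIs of 4 and 5) and the 5 NK markers to 63.7 and 15.6 CPM (UMIs of 3 in both). Other markers went the other way, among them those of erythroid cells (104 and 273 CPM), B cells (19.9 and 23.9 CPM) and T cells (7.97 and 11.5 CPM). The part of such RNA in the ratios was not tested. Of 8 measured interferon genes 5 were called higher and none lower, with a median log2 ratio of 0.87, and Ifi27l2a was at 1138 and 587 CPM.

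In cDC 1 of 6 measured members was called higher, where 2.09% of 9317 genes were called higher and 5.79% lower. Ms4a4b was at 29.5 CPM in high B12 and 18.8 CPM in low B12 cDC, a ratio of 1.57 (1.20 to 2.06), just inside the limit. With gate limits set per 5000 UMIs of the cell its log2 ratio was 0.01, against 0.65. The 6 T cell markers moved with it, at 36.4 CPM in high B12 cDC (UMIs of all 6) and 20.7 CPM in low B12 cDC (UMIs of 4), as did the 5 NK markers, at 9.44 and 5.75 CPM with UMIs of all 5. In the high B12 library 1 cDC held 22 of the 128 Ms4a4b UMIs, and the part of these cells in the ratio was not tested further. Ms4a6d, at 33.8 and 22.6 CPM, lay just outside with 1.5 (1.17 to 1.92). Ms4a4c (1.33), Ms4a6c (1.23) and Ms4a6b (1.14) were above 1 and Ms4a7 (0.772) below.

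In T cells Ms4a4b was called higher with a ratio of 1.99 (1.68 to 2.36) and Ms4a6b, at 1.12, was not. These were the only 2 measured there, where 9.76% of 2253 genes were called higher and 17.3% lower. The NK markers in this gate, at 3377 CPM in the high B12 and 729 CPM in the low B12 library, moved with Ms4a4b, while the 6 T cell markers summed to 2866 and 2789 CPM. In the high B12 library 10 of the 43 cells held 60.2% of the Ms4a4b UMIs. In NK cells Ms4a4b had a ratio of 1.28 (1.23 to 1.33) and Ms4a6b of 1.08, both below the limit.

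In B cells Ms4a1 had a ratio of 1.12 (1.08 to 1.16), and 6 of 7 measured members were within 1.5-fold. The genes called there were 3.02% higher and 8.37% lower of 10878. Ms4a7 was called lower, at 3.02 CPM (15 UMIs) in the high B12 and 5.06 CPM (68 UMIs) in the low B12 library, with an interval of the ratio of 0.318 to 1.06. The 6 macrophage markers moved with it, at 244 and 344 CPM in B cells. Other markers went the other way, among them those of neutrophils (2725 and 1650 CPM) and plasma cells (1613 and 1168 CPM). The part of such RNA in the Ms4a7 ratio was not tested. Of 13 B cell receptor partners none was called higher and 2 lower, with a median log2 ratio of -0.23. Those 2 were the inhibitory receptors Cd22 (370 and 629 CPM) and Cd72 (468 and 734 CPM), while the transcription factor Ebf1 was at 2038 and 2023 CPM.

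In progenitors 1 of 4 measured members was called higher, where 4.33% of 3508 genes were called higher and 422 of them lower. Ms4a6c was at 457 CPM in 35 high B12 and 273 CPM in 19 low B12 cells, a ratio of 1.67 (1.38 to 2.04). Of these cells 80% and 84.2% also met the limits of another gate, and the 10 cells with most held 81.1% and 94.3% of the Ms4a6c UMIs. In progenitors with a Csf1r UMI Ms4a6c was at 815 CPM (10 cells) and 360 CPM (8 cells), which was 2.83 and 1.72 times its level in those without. In the 7 and 3 cells that met no other gate it was at 920 and 985 CPM, with the direction turned. Ms4a3 was at 319 and 178 CPM in the cells with and 335 and 578 CPM in those without Csf1r. Its own ratio over all progenitors was 0.811 (0.679 to 0.973). Elane, Mpo and Prtn3 define this gate and are not compared. Of the other 4 measured genes of the granule and progenitor list, the granule protease gene Ctsg was called lower (280 and 551 CPM), while Fcnb (1342 and 1295 CPM), Cebpe (277 and 322 CPM) and Irf8 (95 and 137 CPM) were not called.

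**Figure D3:**
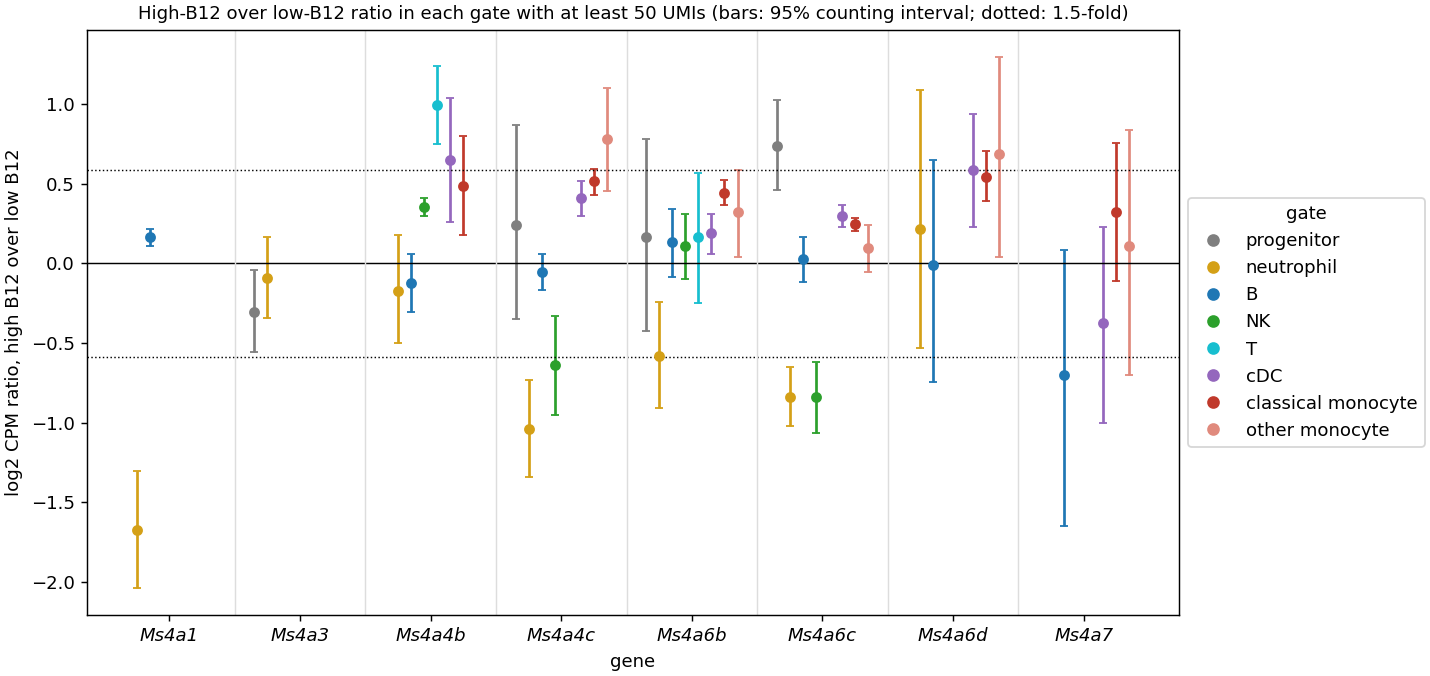
High B12 over low B12 CPM ratio (log2) of each Ms4a gene in each gate where it had at least 50 UMIs, with 95% counting intervals and dotted lines at 1.5-fold. Ms4a4c lies above 0 in classical monocytes, other monocytes and cDC and below 0 in neutrophils and NK cells.

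In neutrophils none of 7 measured members was called higher and 3 were called lower, where 1.64% of 9737 genes were called higher and 15.7% lower. Ms4a1 was at 7.39 CPM in high B12 and 23.6 CPM in low B12 neutrophils, a ratio of 0.313 (0.243 to 0.404). Ms4a4c was at 13.4 and 27.4 CPM (0.486, 0.394 to 0.602) and Ms4a6c at 37.7 and 67.4 CPM (0.560, 0.492 to 0.638). Markers of some other cell types moved with them. The 5 B cell markers summed to 66.5 CPM in high B12 and 211 CPM in low B12 neutrophils, with UMIs of all 5 in both. The 9 monocyte markers summed to 672 and 902 CPM, with UMIs of all 9. The NK markers (118 and 101 CPM) and the T cell markers (20.7 and 17.8 CPM) went the other way. In the same gate 7 of 12 interferon genes were called higher and 1 lower, with a median log2 ratio of 0.68.

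Cells that met more than 1 gate held 94 of the 120 Ms4a1 UMIs in high B12 and 132 of the 134 in low B12 neutrophils. They were 7.77% of high B12 and 13.8% of low B12 neutrophils, and in them Ms4a1 was at 42.1 and 77.9 CPM, Ms4a4c at 79.7 and 85.6 CPM and Ms4a6c at 237 and 207 CPM. In neutrophils of 1 gate only Ms4a1 was at 1.86 CPM (26 UMIs) and 0.501 CPM (2 UMIs), Ms4a4c at 2.78 and 2.76 CPM and Ms4a6c at 5.92 and 8.02 CPM. The ratios of high B12 over low B12 were then 3.02 (0.927 to 32.2) for Ms4a1, 0.978 (0.507 to 2.19) for Ms4a4c and 0.732 (0.486 to 1.15) for Ms4a6c. Ms4a3 was at 31.0 and 31.3 CPM in the neutrophils of 1 gate, close to its level in all of them.

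In NK cells 2 of 4 measured members were called lower and none higher, where 7.38% of 9462 genes were called lower and 2.13% higher. Ms4a6c was at 60.1 CPM in high B12 and 108 CPM in low B12 NK cells (0.559, 0.478 to 0.651), and Ms4a4c at 32.7 and 50.9 CPM (0.643, 0.516 to 0.796). The 17 high B12 and 46 low B12 cells that met more than 1 gate, 2.01% and 4.86% of the NK gate, had Ms4a6c at 476 and 492 CPM. Without them Ms4a6c was at 38.9 and 44.9 CPM and Ms4a4c at 29.8 and 28.9 CPM, and neither was called. Markers of some other cells moved with both genes. The 5 cDC markers summed to 14.4 CPM in high B12 and 44 CPM in low B12 NK cells. The 6 macrophage markers summed to 15.6 and 23.7 CPM and the 9 monocyte markers to 1023 and 1225 CPM. UMIs of every marker of the 3 lists were seen in both, except 1 macrophage marker in low B12 NK cells. The neutrophil markers (1848 and 646 CPM) and the T cell markers (45.4 and 30.2 CPM) went the other way.

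**Figure D4:**
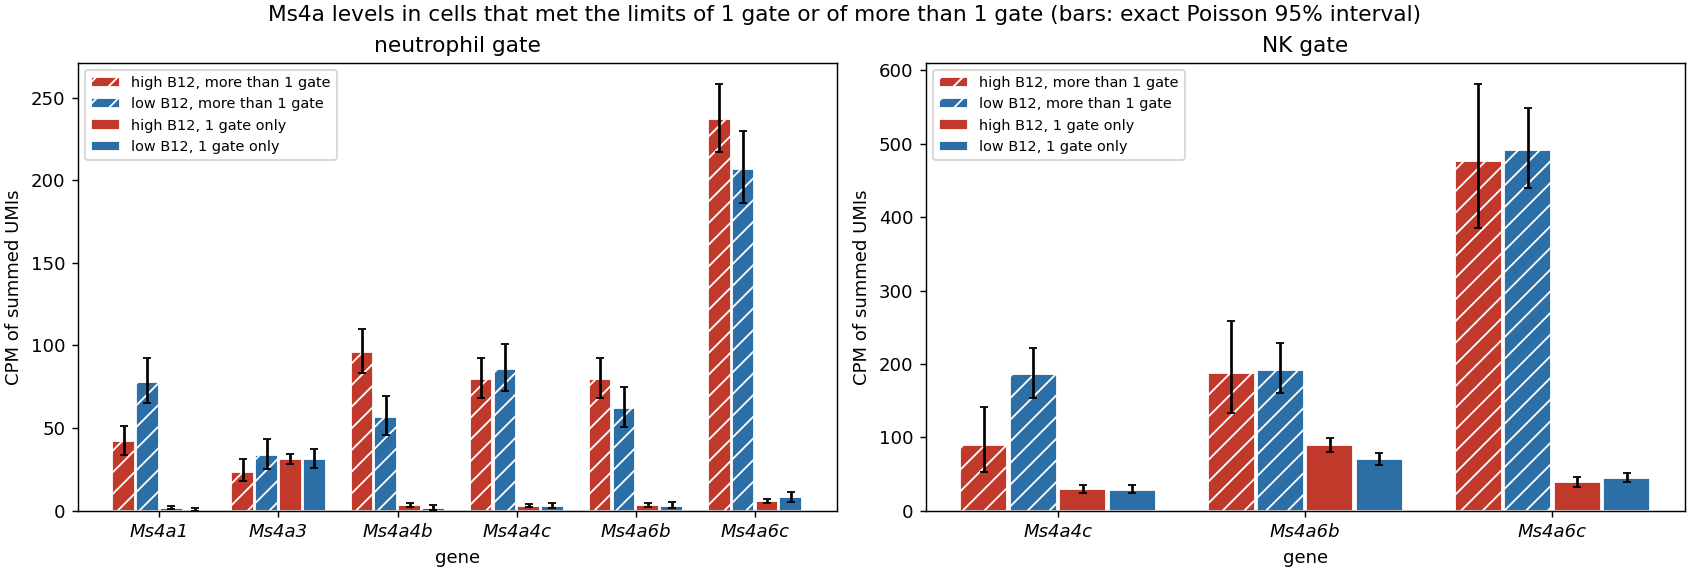
Level (CPM, bars from 0, exact Poisson intervals) of Ms4a genes in neutrophils (left) and NK cells (right), in cells that met the limits of more than 1 gate (hatched) and of 1 gate only (plain), for the high B12 (red) and low B12 (blue) libraries. In neutrophils of 1 gate only Ms4a3 stays at 31.0 and 31.3 CPM and the other 5 genes lie under 10 CPM.

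Over the 8 gates 41 of the 64 pairs of gene and gate were measured, of which 5 were called higher in the high B12 library, 6 lower and 30 neither. Over all genes more were called lower than higher in each of these gates. The share called higher ran from 1.64% in neutrophils to 9.76% in T cells. The share called lower ran from 3.83% in classical monocytes to 17.3% in T cells. In the 1264 high B12 and 955 low B12 cells outside all gates, 1 of 7 measured members was called. This was Ms4a7, at 9.77 and 23.7 CPM (0.415, 0.284 to 0.592). In these cells macrophage markers were at 173 and 231 CPM, while neutrophil markers went the other way, at 11060 and 4869 CPM. The part of such RNA in the ratio was not tested. There 7.26% of 9591 genes were called higher and 10.6% lower.

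Genes whose levels ran most like a member's over the 16 gate and library values were sought among 2744 genes. These points share libraries, depth and cell types, so the Pearson correlations are a description. For Ms4a1 they were Pax5 (0.995), the B lineage transcription factor, Iglc3 (0.995) and Gm30211 (0.994). For Ms4a3 they were Igfbp4 (0.982), Fcnb (0.968), which encodes the granule lectin ficolin B, and 1700020L24Rik (0.955). For Ms4a4b they were Fgf13 (0.979), the T cell receptor kinase gene Lck (0.976) and Sidt1 (0.973). The monocyte members had different nearest genes: Rps9 (0.952), Plekho1 and Ifi30 for Ms4a4c, Nedd8 (0.932), Itgb7 and Pomp for Ms4a6b, Tifab (0.975), Apba1 and Aif1 for Ms4a6c and Mcub (0.958), Anxa5 and Npc2 for Ms4a6d. For Ms4a7 they were Slc8a1 (0.975), Hpgd (0.968) and Tmem51 (0.967). Between members the closest pairs were Ms4a6c with Ms4a6d and Ms4a6c with Ms4a7, both at 0.83, and Ms4a4c with Ms4a6c at 0.81. The neighbours Ms4a6b and Ms4a6c were at 0.40.

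Of the 11 other Ms4a genes and the related Tmem176a and Tmem176b, 4 reached 10 CPM in a gate of both libraries. Ms4a8a was at 61.5 and 52.2 CPM in classical monocytes and at 7.97 and 7 CPM in other monocytes, a classical over other ratio of 7.28 (3.88 to 18.0) and 7.25 (4.60 to 12.9), above those of all 6 measured members. Ms4a4a, a macrophage gene, was at 43.3 and 35.7 CPM in classical and 50.8 and 53.9 CPM in other monocytes. Tmem176a and Tmem176b, which encode ion channel proteins of dendritic cells and other immune cells, led in cDC, at 488 and 422 CPM and at 563 and 502 CPM. Of the remaining 9 genes none reached 50 UMIs in all gates together, and Ms4a5 had no UMI.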

How the data were processed

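The 8 genes and the gene lists were chosen with earlier results of these data known. The values deposited by the authors are unnormalized UMI counts for each gene and droplet, empty droplets included. Headers in these files give Cell Ranger 4, while version 2.1.1 stands in the submitters' processing notes. The kit was a single-cell 3′ v2 kit per the labels. For the counts no genome build is given in the sources used here. GRCm38 positions come from GENCODE M21, which holds 32158 (99.6%) of the gene IDs.

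Cells had at least 500 UMIs, 200 genes and at most 10% mitochondrial UMIs. Gates were assigned by first match. A progenitor had at least 10 UMIs of Elane, Mpo and Prtn3, and a neutrophil at least 5% of its UMIs from S100a8 and S100a9. A B cell had at least 3 UMIs of Cd79a and Cd79b, an NK cell at least 2 of Ncr1 and Klrb1c and a cDC at least 3 of Cd209a, Clec10a and Flt3. A monocyte had at least 2 UMIs of Csf1r and was classical with at least 3 of Ly6c2, Ccr2, F13a1 and Fn1. A T cell had at least 2 UMIs of Cd3d, Cd3e and Cd3g. Scrublet (scanpy 1.11.5) called 329 high B12 and 475 low B12 cells as doublets, which were kept except in 1 alternative.

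UMIs were summed per gate and library and scaled to CPM, with exact Poisson intervals for levels and exact conditional binomial intervals for ratios, at 95%. Ratios add 0.5 UMI to each sum. Genes needed 50 UMIs over the samples compared. All 8 genes are named, list genes only at 50 CPM or more in their gate and up to 4 per list, other family genes at 10 CPM or more in a gate of both libraries, and the 3 genes most like each member among those with at least 100 CPM. The code was tested on simulated data. Python 3.11.15, numpy 2.4.6, scipy 1.17.1, pandas 2.3.3 and Biopython 1.88 were used.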

Additional observations from a re-analysis of the deposited data

Results flagged for a closer look

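The high B12 over low B12 ratio of Ms4a4c lay above 1 in monocytes, at 1.43 in classical monocytes and 1.72 in other monocytes, and below 1 at 0.486 in neutrophils and 0.643 in NK cells. That of Ms4a6c was 1.67 in progenitors, 0.56 in neutrophils and 0.559 in NK cells. These stand out because the counting intervals lie beyond a ratio of 1.25 on opposite sides of 1 in different gates. The difference between gates was not tested, as each group has 1 library. In cells that met the limits of 1 gate only, Ms4a4c was at 2.78 CPM in high B12 and 2.76 CPM in low B12 neutrophils and at 29.8 and 28.9 CPM in NK cells. Monocytes hold no barcodes of an earlier gate by the order in which gates were assigned, so the same comparison cannot be made for them.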

How the results depend on the processing

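No paired analysis was possible because each group has 1 library. The 5 higher and 6 lower calls of a member in a gate became 6 and 2 without barcodes of more than 1 gate, 3 and 2 with every cell weighted the same and 3 and 1 with cells thinned to 1000 UMIs. Under the other 6 alternatives there were 5 to 7 higher and 4 to 9 lower calls. Without barcodes of more than 1 gate the log2 ratio turned to -0.11 for Ms4a6c in progenitors (0.74 with all cells, now 7 and 3 cells), 1.59 for Ms4a1 in neutrophils (-1.67 with all) and 0.05 for Ms4a4c in NK cells (-0.64 with all). With thinning it turned to 0.01 for Ms4a4c in neutrophils (-1.04 with all). Of 328 recomputed ratios of high B12 over low B12 the other 324 kept their direction or were not called, 257 within their counting interval. The 4 members called higher in classical over other monocytes numbered 4 or 5 under all 8 alternatives, and none was called lower. Scaling by the median ratio of genes shifts all ratios by 0.21 (log2) in neutrophils and by 0.11 in B and NK cells, the median gene being lower in the high B12 library. Low counts limit the Ms4a7 and Ms4a6d ratios in other monocytes, which rest on 22 to 56 UMIs per library. They also limit the classical over other ratio of Ms4a4b, with 8 and 14 UMIs in other monocytes. The 0 UMIs of Ms4a3 in other gates are a limit, not absence. The causes were not tested.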

Other observations

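Ms4a2, the beta chain of the IgE receptor of mast cells and basophils, was named after its values were seen. It had 36 high B12 UMIs, 19 of them in progenitors (20.3 CPM), and 3 low B12 UMIs, none in progenitors. The 4 basophil markers, Ms4a2 among them, summed to 440 CPM in high B12 progenitors, with UMIs of all 4, and had no UMI in low B12 progenitors. In cells outside all gates they summed to 68.6 and 2.46 CPM.

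The related Tmem176a and Tmem176b were at 200 and 258 CPM in high B12 other monocytes and at 107 and 116 CPM in low B12 other monocytes, with ratios of 1.87 (1.55 to 2.26) and 2.22 (1.87 to 2.64). In classical monocytes the ratios were 0.998 (0.924 to 1.08) and 1.05 (0.992 to 1.12). They were at 7.69 and 11.1 CPM in high B12 NK cells and at 34.8 and 43.4 CPM in low B12 NK cells. In NK cells of 1 gate only Tmem176a was at 6.07 and 6.28 CPM.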
